A study of Mus musculus with 6 samples.

Results

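The genes described here encode 10 transcription factors of the epithelial-mesenchymal transition (EMT) and of mesenchymal cells, namely Snai1, Snai2, Zeb1, Zeb2, Twist1, Twist2, Foxc1, Foxc2, Tcf4 and Tcf12. They are taken by name, with no threshold on their values, although earlier results of these data were known when they were chosen, and are 10 of the 56953 genes in the table. All 10 were measured and all passed the filter on low values. RNA was sequenced from mouse embryonic fibroblasts (MEFs), the connective tissue cells that grow out when embryos are cultured. There were 3 WT libraries and 3 GαqKO libraries, and the study describes them as biological replicates. The GαqKO line is described as lacking the G protein subunits Gαq and Gα11, which pass signals from many membrane receptors to phospholipase C. Both MEF lines came from another laboratory and grew in the same serum-containing medium, and the labels give no treatment. Neither the number of clones or embryos behind each line nor the age of the embryos is given in the sources used here.

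In the EMT, epithelial cells lose the junctions that tie them to their neighbours and take on the motile, matrix-producing state of mesenchymal cells. Zinc finger factors of the Snail and Zeb families bind E-box sequences in the promoters of junction genes such as Cdh1, which encodes E-cadherin, and repress them with the help of corepressors. Twist factors are basic helix-loop-helix (bHLH) proteins that bind E-boxes as dimers with E proteins such as the products of Tcf3, Tcf4 and Tcf12, and Id proteins sequester E proteins so that they cannot bind DNA. Foxc1 and Foxc2 are forkhead factors of embryonic mesenchyme. Fibroblasts are mesenchymal cells and normally express several of these factors.

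The Snail and Zeb factors are known to prefer the E-box letters CACCTG, which read CAGGTG on the other strand. The 250 bases before the start of the canonical transcript are shown for 3 epithelial genes that were lower in the libraries labelled GαqKO and hold these letters, and for Snai1, whose own promoter also holds them. The 3 were picked for having a match: of the 12 epithelial genes called lower, 5 had one (41.7%), and Krt14 and Krt19, which were also near 0 in GαqKO, had 0 matches. Over all 29 epithelial genes listed, whatever their change, 13 had a match (44.8%), so the genes called lower did not stand out in their list. They are read 5′ to 3′ on the strand of the gene from the GRCm39 genome, and capitals mark every CACCTG or CAGGTG. The windows are chr8:107329733-107329982 on the plus strand for Cdh1, chr8:107237206-107237455 on the plus strand for Cdh3, chr16:4950378-4950627 on the minus strand for Ppl and chr2:167379863-167380112 on the plus strand for Snai1.
Cdh1: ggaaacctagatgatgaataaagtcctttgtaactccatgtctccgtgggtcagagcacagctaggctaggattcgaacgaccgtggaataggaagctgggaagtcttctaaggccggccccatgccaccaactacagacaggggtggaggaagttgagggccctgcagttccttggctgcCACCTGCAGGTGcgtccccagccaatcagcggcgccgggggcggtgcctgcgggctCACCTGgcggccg
Cdh3: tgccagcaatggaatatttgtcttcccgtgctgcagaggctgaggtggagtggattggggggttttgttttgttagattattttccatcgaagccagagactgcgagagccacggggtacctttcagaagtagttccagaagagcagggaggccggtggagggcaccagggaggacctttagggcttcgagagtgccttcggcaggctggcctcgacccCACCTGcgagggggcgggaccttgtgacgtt
Ppl: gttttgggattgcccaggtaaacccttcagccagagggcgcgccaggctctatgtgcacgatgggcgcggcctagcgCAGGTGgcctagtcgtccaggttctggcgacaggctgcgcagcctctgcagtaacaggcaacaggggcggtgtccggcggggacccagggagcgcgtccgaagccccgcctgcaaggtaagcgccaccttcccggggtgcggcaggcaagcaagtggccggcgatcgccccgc
Snai1: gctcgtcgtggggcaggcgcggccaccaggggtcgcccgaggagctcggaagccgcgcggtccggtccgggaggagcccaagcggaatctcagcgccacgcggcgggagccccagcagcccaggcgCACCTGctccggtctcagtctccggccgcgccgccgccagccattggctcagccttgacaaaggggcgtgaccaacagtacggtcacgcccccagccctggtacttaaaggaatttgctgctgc
The Cdh1 window held 3 matches, with first bases at -69, -63 and -13 relative to the transcript start, of which the first and the second adjoin without overlap. The other windows held 1 match each, at -31 for Cdh3, -173 for Ppl and -124 for Snai1. In the same window, the letters occurred in 3846 of 21770 protein-coding genes (17.7%) and in 1903 of the 11801 protein-coding genes tested (16.1%). Among the 10 factor genes they occurred in 3 (30.0%), namely Snai1, Zeb1 and Tcf4. A match is a description of the letters and says nothing about binding, which was not measured.

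The unit throughout is the normalized count, a count of reads on a gene after division by the size factor of its library. These values summed to between 11392429 and 11483486 per library. In the 5 libraries where whole reads could be recovered from them, 9853000 to 12229175 reads lay on genes. The check of the targeted genes by RNA gave mixed results. Gna11, which encodes Gα11, fell from 2147.9 ± 29.0 normalized counts in WT to 451.6 ± 28.7 in GαqKO (SD, n = 3 libraries each here and below). Gnaq, which encodes Gαq, was not lower, at 1690.8 ± 48.5 and 1926.3 ± 36.0. Its RNA level therefore does not check the label, and the groups are named by their labels. The study reports loss of Gαq protein in the GαqKO MEFs by Western blot and immunofluorescence, and RNA counts do not measure protein. The Y-linked gene Ddx3y was at 1138.5 to 1238.7 normalized counts in WT and at 0 in all GαqKO libraries, so the lines differed in more than the targeted genes, and the genotype and other differences between the lines cannot be told apart. Of the 9 fibroblast markers, Vim, Col1a1, Col1a2, Col3a1 and Pdgfrb were at 833.6 normalized counts or more in every library, while in WT Pdgfra (19.6 ± 2.2) and Dcn (32.1 ± 3.0) were low and Thy1 was at 2.1, 0.0 and 0.0. Lum was at 4.0 or below in every library of both groups.

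Of the 10 factor genes, 7 were higher in GαqKO than in WT, 2 were lower and 1 did not pass the test (limma on log2(normalized count + 1), Benjamini-Hochberg adjusted p under 0.05). The rises were those of Foxc2, Snai1, Tcf4, Twist2, Zeb1, Twist1 and Foxc1, the falls those of Zeb2 and Snai2, and Tcf12 was not called. Over all 14096 genes tested, 65.8% were called in either direction, 31.8% higher and 34.1% lower, so being called is common between these lines. A log2 fold change over 1 was reached by 5 of the 10 factor genes, against 10.2% of all genes tested, and a change under -1 by 0 of 10, against 10.5%. The median log2 fold change of the 10 was 1.06, against -0.01 over all genes tested. The groups did not overlap for 9 of the 10, against 69.6% of all genes tested. Summed over the 10 genes, the libraries held 7637.9 to 7959.8 normalized counts in WT and 14480.7 to 14843.8 in GαqKO. In bulk RNA, fewer cells that express a gene and less RNA per cell cannot be told apart, and the p-values measure the spread between libraries of 1 line per genotype.

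**Figure D1:**
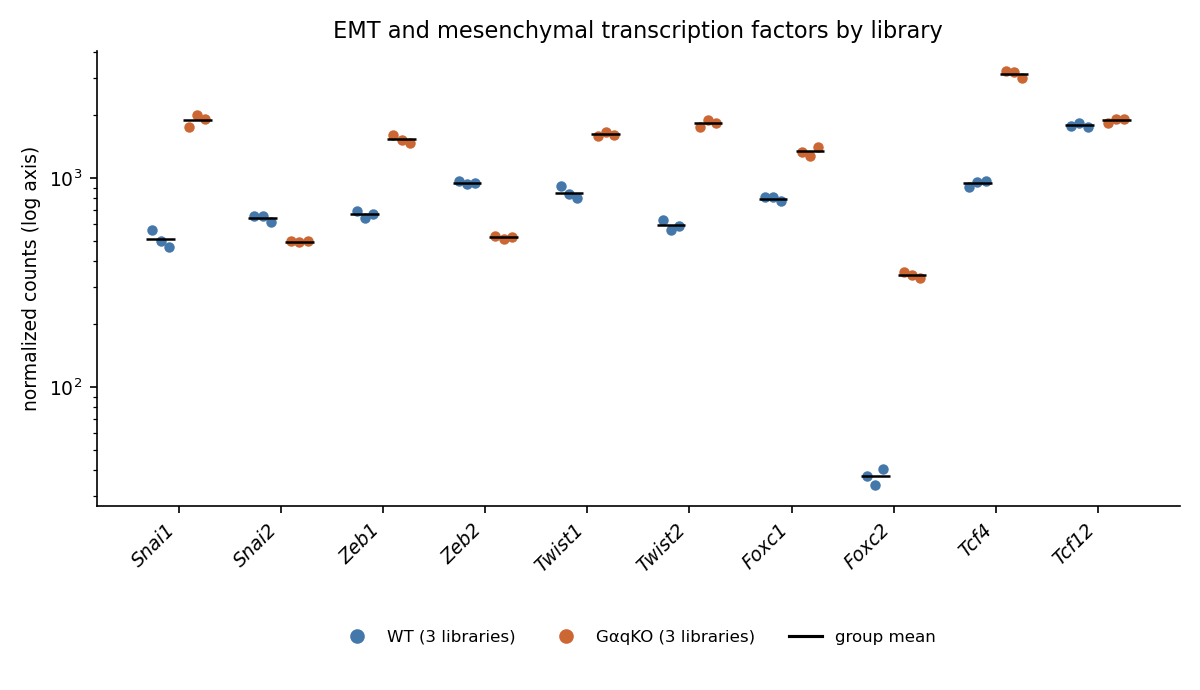
Normalized counts of the 10 transcription factor genes in each library (y axis, log scale), with 3 WT and 3 GαqKO libraries per gene shown as points and the group means as lines. The GαqKO points lie above the WT points for 7 genes, below them for Snai2 and Zeb2, and among them for Tcf12.

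**Figure D2:**
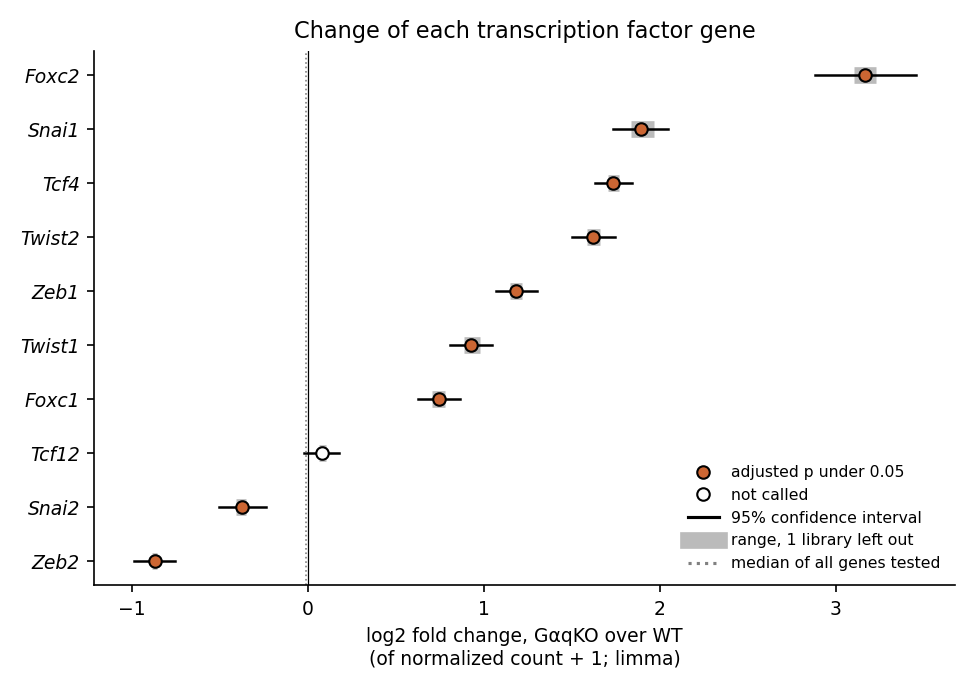
Log2 fold change of GαqKO against WT for each of the 10 genes, on the log2(normalized count + 1) scale, with 95% confidence intervals from limma as lines and the range over fits with 1 library left out as grey bands. The changes run from -0.87 for Zeb2 to 3.17 for Foxc2, and the interval holds 0 for Tcf12.

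The Snail family moved in opposite directions. Snai1 (chr2:167380113-167384734) encodes Snail, a zinc finger repressor of E-cadherin with a short-lived protein. Its normalized counts were 562.8, 497.4 and 470.2 in WT and 1754.1, 2013.0 and 1917.4 in GαqKO. Every GαqKO library was above every WT library, with means of 510.1 ± 47.6 and 1894.8 ± 130.9, and Snai1 rose by 1.89 on the log2 scale (SE 0.07, adjusted p = 4.12e-11). Its paralog Snai2 (chr16:14523425-14527252) encodes Slug, which also represses E-cadherin and acts in neural crest cells. Snai2 stood at 654.7, 661.5 and 613.8 normalized counts in WT and 497.7, 492.6 and 499.5 in GαqKO. All GαqKO libraries were below all WT libraries, and Snai2 fell by 0.37 on the log2 scale (SE 0.06, adjusted p = 0.000115). Snai2 had more counts than Snai1 in every WT library and fewer in every GαqKO library, but per kb of exon Snai1 was above Snai2 in both groups, at 314 against 278 in WT and 1170 against 215 in GαqKO. The within-library log2 ratio of Snai1 to Snai2 counts was -0.34 ± 0.10 in WT and 1.93 ± 0.11 in GαqKO. The other Snail gene, Snai3, was low throughout, at 16.5 to 28.5 normalized counts in WT and 0.0 to 2.8 in GαqKO. Snai3 was called lower (log2 fold change -3.27, adjusted p = 0.000126), but it passed the filter on low values only through WT.

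The Zeb family showed the same split. Zeb1 (chr18:5591851-5775467) and Zeb2 (chr2:44873644-45007464) encode large zinc finger and homeodomain repressors that bind paired E-boxes. Zeb1 was at 695.4, 647.0 and 675.9 normalized counts in WT and 1606.7, 1520.5 and 1470.3 in GαqKO. The groups were far apart, and Zeb1 rose by 1.19 on the log2 scale (SE 0.06, adjusted p = 3.08e-10). Zeb2 was at 973.2, 931.6 and 946.6 normalized counts in WT and 525.9, 511.1 and 521.6 in GαqKO. Again no library crossed between groups, and Zeb2 fell by 0.87 on the log2 scale (SE 0.06, adjusted p = 8.69e-09), the larger of the 2 falls among the 10 genes. The log2 ratio of Zeb1 to Zeb2 counts went from -0.50 ± 0.02 in WT to 1.56 ± 0.06 in GαqKO. Which of them was higher in WT depends on the length used, since per kb of merged exons Zeb1 was at 49.3 and Zeb2 at 41.8 in WT, and per kb of the canonical transcript at 116 and 158. In GαqKO Zeb1 was higher by either length.

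Both Twist genes rose, by unequal amounts. Twist1 (chr12:34007645-34009828) encodes a bHLH factor needed for cranial mesenchyme and limb development. It stood at 911.6, 839.3 and 803.1 normalized counts in WT and 1584.1, 1654.6 and 1613.3 in GαqKO, and rose by 0.93 on the log2 scale (SE 0.06, adjusted p = 4.76e-09). Twist2 (chr1:91729176-91796542), also called Dermo1, encodes a close relative expressed in dermal mesenchyme. Its values were 627.6, 566.3 and 587.3 normalized counts in WT and 1756.0, 1899.7 and 1837.8 in GαqKO, a log2 fold change of 1.62 (SE 0.06, adjusted p = 1.78e-11). Neither gene had overlapping groups. Twist1 had more counts than Twist2 in every WT library and fewer in every GαqKO library, with a log2 ratio of 0.52 ± 0.06 in WT and -0.18 ± 0.03 in GαqKO. Per kb of merged exons Twist1 stayed above Twist2 in GαqKO, at 978 against 329, while per kb of the canonical transcript it was below it, at 978 against 1370. The shift of the count ratio, -0.70, was the smallest in size of the 5 pairs compared.

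The forkhead pair held the largest rise. Foxc2 (chr8:121842910-121845634), a factor of mesenchyme and lymphatic vessels, was at 37.6, 34.0 and 40.7 normalized counts in WT and 355.9, 343.4 and 333.3 in GαqKO. The group means of 37.4 ± 3.4 and 344.2 ± 11.3 differed by a ratio of 9.20, with a log2 fold change of 3.17 (SE 0.13, adjusted p = 1.08e-10). By size of change Foxc2 ranked 839 among the 14096 genes tested. Foxc1 (chr13:31990616-31996459), which acts with Foxc2 in somites, eye and heart, stood at 809.2, 807.3 and 776.6 in WT and 1336.2, 1274.2 and 1409.8 normalized counts in GαqKO. Its groups did not overlap either, and the log2 fold change was 0.75 (SE 0.05, adjusted p = 3.42e-08). Foxc1 had more counts than Foxc2 in all libraries, but the log2 ratio of Foxc1 to Foxc2 narrowed from 4.38 ± 0.16 in WT to 1.96 ± 0.10 in GαqKO.

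The E proteins, the dimer partners of the Twist factors, did not move together. Tcf4 (chr18:69476427-69822150), which encodes the E protein E2-2 and is not the Wnt effector of the same alias, was at 906.4, 960.7 and 971.0 normalized counts in WT and 3238.7, 3214.3 and 3017.1 in GαqKO. The ratio of the means was 3.34 and the log2 fold change 1.74 (SE 0.05, adjusted p = 2.42e-12), the lowest adjusted p of the 10 genes. Tcf12 (chr9:71749970-72019177), which encodes the E protein HEB, was at 1781.4, 1834.0 and 1752.7 in WT and 1825.5, 1920.5 and 1927.5 normalized counts in GαqKO. GαqKO replicate 1 lay below WT replicate 2, so the groups overlapped. The log2 fold change of Tcf12 was 0.08 with a 95% confidence interval of -0.02 to 0.18 (adjusted p = 0.138), an interval whose upper end is far below the change of Tcf4. The remaining E protein gene, Tcf3, which encodes E12 and E47, had 2433.8 ± 26.4 normalized counts in WT and 1904.7 ± 46.3 in GαqKO and fell by 0.35 on the log2 scale (adjusted p = 5.85e-06). In WT, Tcf4 had fewer counts than Tcf12 in every library, with a log2 ratio of -0.92 ± 0.06, and in GαqKO it had more, with a log2 ratio of 0.74 ± 0.09.

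The size of each ratio depends on the lengths of the 2 genes, so its sign does not rank them, while its shift between the groups does not depend on length. Only for Tcf4 and Tcf12 did the higher gene differ between WT and GαqKO both per kb of merged exons and per kb of the canonical transcript. No ratio overlapped between the groups in any pair. The exact two-sided permutation p was 0.1 for each pair and 0.1 after adjustment over the 5 pairs, which is the smallest that 3 against 3 libraries allow, so these ratios cannot pass 0.05 and stand as descriptions. A ratio within a library does not depend on how the libraries were scaled to each other.

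**Figure D3:**
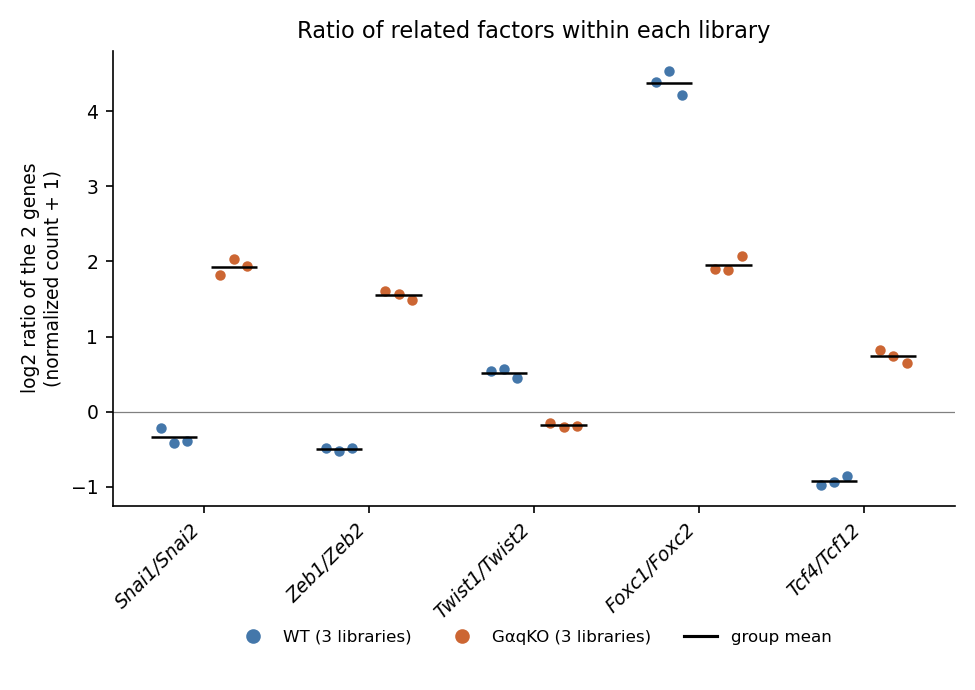
Log2 ratio of the normalized counts of the 2 genes of each pair in each library (y axis), with 3 WT and 3 GαqKO points per pair. The ratio crosses 0 for Snai1/Snai2, Zeb1/Zeb2, Twist1/Twist2 and Tcf4/Tcf12, and stays above 0 for Foxc1/Foxc2, where 0 means equal counts and not equal levels per length.

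Levels of different genes were compared per kilobase of exon. With all exons of a gene merged, Twist1 was highest in WT at 515 ± 33.4 normalized counts per kb, followed by Snai1 at 314 ± 29.3, Snai2 at 278 ± 11.2 and Foxc1 at 137 ± 3.13. Foxc2 was lowest in WT, at 13.7 ± 1.23 per kb. In GαqKO, Snai1 was highest at 1170 ± 80.7 per kb, followed by Twist1 at 978 ± 21.4 and Twist2 at 329 ± 12.9, and Zeb2 was lowest at 22.8 ± 0.335. In the middle of the GαqKO order, Zeb1 (107.8 to 117.8 per kb over the libraries) and Tcf4 (106.7 to 114.5) overlapped, and Tcf12 lay just below them (100.8 to 106.4). The order depends on the length used. Over the length of the canonical transcript alone, Twist2 was at 444 per kb in WT and 1370 in GαqKO, which placed it above Snai1 in both groups, and Tcf4 was at 105 in WT and 352 in GαqKO.

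Several of these genes share sequence with a neighbour in GENCODE release 39, while the authors counted on release 32. Some of these neighbours, among them the only one of Snai1, were not found among the deposited genes. Of the exon bases of Twist2, 26.6% lie in exons of other annotated genes, and its antisense transcript Gm29100 was at 25.1, 33.0 and 44.8 normalized counts in WT and 91.1, 89.0 and 86.6 in GαqKO. For Snai1 the share was 12.7%, for Zeb2 3.9%, for Tcf4 2.6% and for Zeb1 1.5%, and it was 0% for the other 5. Measured against the whole spans of other genes, introns included, the share was 100% for Foxc1 and 43.6% for Snai1. By that measure it was 26.6% for Twist2, 9.8% for Zeb1, 8.0% for Tcf4 and 4.3% for Zeb2. The antisense transcript Zeb1os1 was at 24.4 to 43.7 normalized counts in WT and 64.5 to 78.6 in GαqKO, far below Zeb1 itself. The strand setting of the counting is not given in the sources used here, so reads of a gene and of its antisense partner cannot be told apart.

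Other transcription factors tied to mesenchyme or the EMT moved in both directions. Of 16 in the list, 13 were tested, and 7 were higher, 4 lower and 2 not called in GαqKO, with a median log2 fold change of 0.50. Over all genes tested, 31.8% were higher and 34.1% lower, and these shares stand beside the counts of every list below. Prrx1, a homeobox factor of limb and craniofacial mesenchyme, rose from 3572.0 ± 45.4 to 13374.4 ± 304.1 normalized counts (log2 fold change 1.90). Its paralog Prrx2 was at 155.6, 115.6 and 119.1 in WT and 1479.0, 1520.5 and 1556.9 in GαqKO (log2 fold change 3.55), so both Prrx genes rose. Foxd1, a factor of stromal progenitors, was at 93.6 to 129.5 normalized counts in WT and 1137.7 to 1272.9 in GαqKO (log2 fold change 3.36). In the other direction Klf8, a zinc finger repressor, was at 239.0 to 273.6 normalized counts in WT and 2.0 to 4.7 in GαqKO (log2 fold change -6.06). Klf8 passed the filter on low values only through WT and was near 0 in GαqKO, so the size of its change depends on the added 1. Runx1 and Runx2 were the 2 tested genes that were not called (adjusted p = 0.544 and 0.574).

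Among the bHLH partners and inhibitors, 5 of 10 were tested, of which 2 were higher and 3 lower, with a median log2 fold change of -0.35. The Id genes, whose products block E proteins, did not follow 1 direction. Id4 was at 1.0, 1.9 and 1.0 normalized counts in WT and 2702.5, 2845.5 and 2625.3 in GαqKO, so that its WT level lay under the floor of 3 counts. Id1 rose by 1.29 on the log2 scale to 5747.7 ± 232.7 normalized counts, Id2 fell by 2.38 to 215.7 ± 23.6 and Id3 fell by 0.42 to 2061.8 ± 122.5. The bHLH genes Hand1, Hand2, Scx and Msc were listed at 0 in every library. All their exon bases (100%) lie inside the spans of other annotated genes. The same holds for the histone methyltransferase gene Suv39h1 and the ubiquitin ligase gene Fbxl14, which were also listed at 0 throughout. It holds as well for Foxc1 and Sox9, which had 776.6 normalized counts or more in every library, so this share alone does not mark genes at 0. Myog, a bHLH gene among the muscle markers, was also at 0 throughout, with 38.3% of its exon bases inside such spans. A 0 here is not read as absence of the transcript, and the part of the counting was not tested.

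Among the corepressors and chromatin enzymes through which Snail and Zeb proteins act, more genes were called lower than higher. Of all genes tested, 34.1% were lower and 31.8% were higher. Of 15 listed, 14 were tested, with 1 higher, 8 lower and 5 not called, no change past 1 on the log2 scale, and a median log2 fold change of -0.14. Kdm1a, the histone demethylase LSD1 that Snail recruits, went from 887.9 ± 61.2 to 486.8 ± 55.5 normalized counts (log2 fold change -0.87, adjusted p = 4.9e-07). Its partner Rcor1, which encodes CoREST, fell by 0.51, the deacetylase gene Hdac1 fell by 0.82 and the methyltransferase gene Ezh2 fell by 0.39 on the log2 scale. Ctbp1, which encodes a corepressor of the Zeb proteins, was the 1 called higher, from 3115.9 ± 83.1 to 3516.6 ± 114.6 normalized counts.

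Snail and Twist proteins are also controlled by phosphorylation and degradation, which RNA counts do not show. Of 14 listed genes for kinases, ubiquitin ligases and deubiquitinases of these proteins, 12 were tested, with 3 higher, 6 lower and 3 not called, and a median log2 fold change of -0.24. The share called was near the 65.8% of all genes tested. Gsk3b, a kinase that marks Snail for degradation, went from 2707.5 ± 172.7 to 1600.0 ± 47.5 normalized counts (log2 fold change -0.76, adjusted p = 1.96e-08). Pak1, a kinase that phosphorylates Snail, fell by 1.25 on the log2 scale. Among the genes that rose were Fbxl5, a ubiquitin ligase subunit for Snail, by 0.75 and Prkd1, a protein kinase D gene, by 0.52.

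Epithelial genes, among them known targets of the EMT repressors such as Cdh1, were mostly lower in GαqKO where they were detected at all. Of 29 epithelial genes listed, 14 were tested, and 12 of these were lower, all with a log2 fold change under -1, 1 was higher and 1 was not called. Over all genes tested, 34.1% were lower, and 10.5% were lower with a log2 fold change under -1. Before any test, 13 of the 29 had at least 10 normalized counts in every WT library and 5 in every GαqKO library, so most of the tested genes entered through their WT level. The summed counts of the list were 6020.6 to 6315.2 in WT and 540.8 to 641.7 in GαqKO. Fitted changes gave a median log2 fold change of -4.46, or -4.10 with groups at or under 3 counts set to that floor. With the stricter filter of at least 10 normalized counts in every library, 3 genes were called lower and 0 higher.

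Cdh1 was at 241.2, 235.1 and 238.2 normalized counts in WT and 8.5, 10.4 and 5.0 in GαqKO (log2 fold change -4.79, SE 0.24, adjusted p = 8.62e-10). Cdh3, which encodes P-cadherin of basal epithelia and whose promoter is shown with that of Cdh1, was at 2002.8, 1859.3 and 1818.9 in WT and 4.7, 9.2 and 2.0 in GαqKO. Ppl, which encodes the desmosome and envelope protein periplakin, was at 851.0, 992.8 and 998.5 normalized counts in WT and 0.9, 1.2 and 0.0 in GαqKO. All GαqKO libraries were near 0 for these 3 genes. The keratin gene Krt14 was at 253.5 to 261.0 in WT and 0.0 to 2.3 in GαqKO, and Krt19 at 506.1 to 602.5 and 1.0 to 6.9 normalized counts. Jup, which encodes plakoglobin and is used at several kinds of junction, fell by 1.88 on the log2 scale to 391.1 ± 21.0. The 1 epithelial gene called higher was the claudin gene Cldn1, at 3.9 to 9.4 in WT and 15.1 to 34.7 normalized counts in GαqKO.

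The WT libraries did not hold a full epithelial profile. Epcam was at 1.0 to 5.2 normalized counts in WT and 2.8 to 8.1 in GαqKO, and Krt5, Ocln, Cldn3 and Cldn4 stayed at or under 4.2 in every library. Of 11 epithelial regulators, which oppose the EMT factors, 3 were tested. The splicing regulator Esrp1 had 1.0 to 4.9 normalized counts in WT and 1.0 to 3.8 in GαqKO, and Grhl2 had 3.9 to 17.3 and 11.3 to 24.3 (adjusted p = 0.0539). Trp63, which encodes the basal epithelial factor p63, was the 1 called, higher in GαqKO at 11.1 to 25.4 normalized counts against 1.0 to 4.2, and it passed the filter only through GαqKO. With the filter applied to every library, 0 regulators were called. Grhl3, under the filter, was at 7.8 to 12.2 normalized counts in WT and at 0 in all GαqKO libraries. In the promoter windows of the 29 epithelial genes, whatever their change, the E-box letters occurred in 13 (44.8%). Markers of other cell types were low in both groups, with sums over 5 endothelial markers of 12.6 to 23.4 in WT and 15.0 to 25.4 in GαqKO, over 5 immune markers of 105.5 to 120.5 and 70.4 to 104.1, and over 5 muscle and neural crest markers of 63.1 to 73.8 and 65.9 to 78.5 normalized counts. The part of a difference in cell makeup or line origin in the changes of the factors was not tested.

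**Figure D4:**
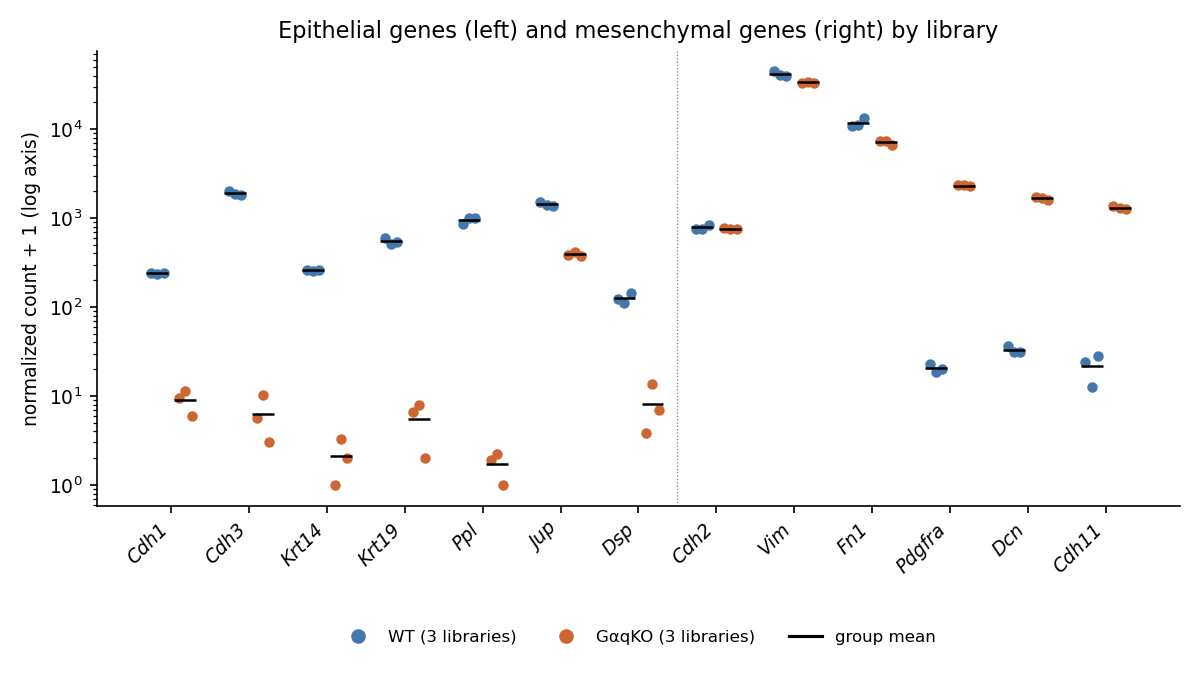
Normalized count + 1 (log axis) of 7 epithelial genes (left) and 6 mesenchymal genes (right), with 3 WT and 3 GαqKO libraries per gene as points and group means as lines. Cdh1, Cdh3 and Ppl are at 10.4 normalized counts or below in every GαqKO library, Cdh2 overlaps between the groups, Vim and Fn1 are lower in GαqKO, and Pdgfra, Dcn and Cdh11 are higher.

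Mesenchymal genes did not rise as a group. Of 27 listed, 24 were tested, with 9 higher, 13 lower and 2 not called, and a median log2 fold change of -0.18. The rises past 1 on the log2 scale numbered 8 and the falls past -1 numbered 5. Of all genes tested, 10.2% and 10.5% changed that far. Before any test, 22 of the 27 had at least 10 normalized counts in every WT library and 23 in every GαqKO library. A few of the tested genes therefore entered through 1 group only. With the stricter filter of at least 10 normalized counts in every library, 7 were called higher and 12 lower. Cdh2, the N-cadherin gene often gained as E-cadherin is lost, was at 752.9, 762.6 and 836.7 normalized counts in WT and 768.1, 752.7 and 757.3 in GαqKO, with overlapping groups and a log2 fold change of -0.04 (95% confidence interval -0.17 to 0.08, adjusted p = 0.523). Vim, the intermediate filament gene of mesenchymal cells, fell by 0.32 on the log2 scale from 41784.9 ± 2519.3 normalized counts. On the same scale the matrix gene Fn1 fell by 0.73 and Acta2, for smooth muscle actin, fell by 1.42. The collagen gene Col1a1 fell by 1.53 and Col1a2 fell by 0.36. Other markers of the same list went the opposite way. Pdgfra, a growth factor receptor of mesenchymal cells, was at 21.9, 17.5 and 19.3 normalized counts in WT and 2328.8, 2356.4 and 2273.9 in GαqKO (log2 fold change 6.82). Cdh11, the cadherin of mesenchymal cells, rose from 20.7 ± 8.2 to 1303.7 ± 56.4, Dcn from 32.1 ± 3.0 to 1662.8 ± 53.8 and S100a4 from 169.8 ± 24.3 to 517.8 ± 34.7 normalized counts. Mmp9, which encodes a matrix-degrading protease, was at 5.2, 12.6 and 18.3 in WT and 245.1, 245.1 and 214.5 normalized counts in GαqKO (log2 fold change 4.32). Of the 9 fibroblast markers, 8 were tested, with 4 higher and 4 lower and a median log2 fold change of 0.03. Thy1, among the 4 higher, passed the filter only through GαqKO.

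**Figure D5:**
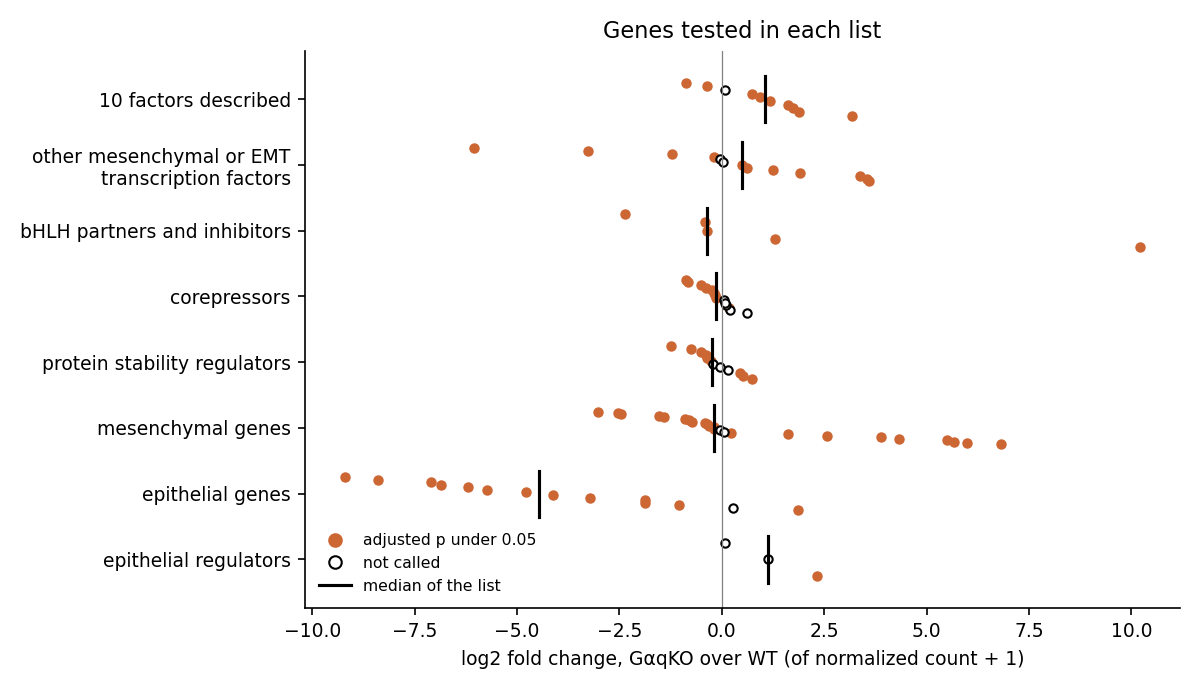
Log2 fold changes of GαqKO against WT for the tested genes of each list (1 point per gene, on the log2(normalized count + 1) scale, filled where called, with a line at the median of the list). The transcription factors described here have a median of 1.06, the epithelial genes lie mostly far below 0, and the mesenchymal genes lie on both sides of 0.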

How the data were processed

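The data were 6 poly-A RNA sequencing libraries of MEFs, 3 WT and 3 GαqKO, stated to be biological replicates. Per the study's methods, the authors aligned paired reads to GRCm39 with Rbowtie2, counted them with featureCounts on GENCODE release 32 and used DESeq2. Tool versions, the strand setting and any low-count filter are not given in the sources used here. What the authors deposited is a signal: read counts per gene after division by 1 size factor for each library. Symbols, coordinates, exon lengths and promoter windows came from GENCODE release 39 (GRCm39), in which 56310 of 56953 identifiers were found (98.9%).

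The members and gene lists were chosen with earlier results of these data known, so no list is independent evidence. The main test was limma 3.58.1 (R 4.3.3) with its trend option on log2(normalized count + 1), over the 14096 genes that reached 10 normalized counts in 3 libraries or more, and Benjamini-Hochberg adjustment over all of them. Adding 1 understates the change of low genes. Named genes were all 10 factors, a fixed set of partner and marker genes, and of each list up to 4 called genes with the largest change and a mean of at least 100 normalized counts. Snai3, Sox9, Ctbp1, Runx1, Runx2, Cldn1, Trp63, Grhl3, Suv39h1, Fbxl14, Thy1, Lum, Ddx3y, Col3a1, Pdgfrb, Jup, the antisense transcripts and the genes near 0 were named after their values were seen.

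In 5 libraries 100% of nonzero values were whole multiples of 1 step (tolerance 0.1), and edgeR 4.0.16 and DESeq2 1.42.0 were run on these reads as alternatives. GαqKO replicate 3 was left out there because its reads were not accepted as recovered. The fits were tested on simulated data: of 200 changed genes, limma recovered 200 among 14054 genes with 10 false calls. The changed genes had a mean of at least 100 and changes of 1 log2 unit or more, and all genes shared 1 dispersion. This setting is easier than the data, where 65.8% of genes tested were called, and does not cover genes near 0. The replicate numbers were checked for pairing, and same-numbered libraries did not deviate together (r = -0.045, -0.148 and -0.064). Alternatives covered the pseudocount, the filter, the scaling, the prior spread, a replicate block, the count tests and each library left out. Ratios were tested with an exact permutation test written in Python 3.11.15 with numpy 2.4.6, and the confidence intervals used t quantiles from scipy 1.17.1.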

Additional observations from a re-analysis of the deposited data

How the results depend on the processing

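Over 15 alternatives, the 9 calls among the factor genes kept their direction and their side of the threshold, and 7 were higher and 2 lower in each. The highest adjusted p among these was 0.00339, for Snai2 with DESeq2 on 5 libraries, while Tcf12 ranged from 0.0963 to 0.483 and was never called. Leaving out 1 library at a time moved the log2 fold change of Snai1 between 1.84 and 1.97, of Zeb2 between -0.88 and -0.85 and of Foxc2 between 3.10 and 3.23. With a replicate block, 4324 genes were higher and 4638 lower, against 4479 and 4800 without it, and the block changed no call among the 10 factors. The replicate numbers share only a number here. A filter that every library reach 10 normalized counts left 3 epithelial genes lower in place of 12 and 0 higher in place of 1, because genes low in 1 group were no longer tested. It also left 2 of the other transcription factors lower in place of 4, and 1 bHLH partner or inhibitor higher in place of 2. Among mesenchymal genes the same filter left 7 higher in place of 9 and 12 lower in place of 13. Corepressors called higher numbered 2 with a pseudocount of 0.5, with TMM scaling or without WT replicate 3, and 3 without the trend in the prior spread. Epithelial regulators called higher numbered 2 without WT replicate 3, without GαqKO replicate 1 or with a pseudocount of 5, and 0 with the filter on every library, against 1. Those called lower numbered 1 with no filter, edgeR or DESeq2, against 0. Levels per kb, recomputed with the canonical transcript length after seeing the data, moved for Zeb1, Zeb2, Twist2, Tcf4 and Tcf12. Depth of 9853000 to 12229175 reads leaves genes near 0 within counting error, and protein levels were not measured.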

Other observations

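Across the 6 libraries, many genes had a pattern close to that of the factors that rose past 1 on the log2 scale. Among 9332 other named genes whose mean reached 100 normalized counts, between 1799 and 1864 had a Pearson r of 0.95 or more with Snai1, Zeb1, Twist2, Foxc2 or Tcf4. Those most like each factor were E2f4 and Ndst2 for Snai1, Stard7 and Pgrmc2 for Zeb1, Cables2 and Apbb1ip for Twist2, Adgra2 and Ereg for Foxc2, and Psme2 and Cenpn for Tcf4, with r between 0.9995 and 0.9999. The points share only 2 groups of libraries, so these values mostly describe the difference between the groups.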
